A study of Mus musculus with 12 samples.

Results

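The Fli1 and Ets1 neighbourhood on mouse chromosome 9 was examined for binding of FoxP3, a forkhead protein that defines regulatory T (Treg) cells. The window was chosen by its high number of FoxP3 peaks: it holds every peak whose summit lies between positions 32000001 and 33000000 of chromosome 9 (genome build mm9). These were 306 of 53228 peaks over 6 libraries, and they joined into 106 of 24765 regions when peaks sharing at least 1 bp between libraries were merged. The number of peaks in the window is therefore a description and was not tested against the rest of the genome.

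FoxP3 was immunoprecipitated from CD4+ Treg cells isolated magnetically from lymph nodes and spleen of C57BL/6J mice, and 3 libraries were sequenced for each of 2 genotypes. WT mice carried FoxP3WT:hCD2 and A384T mice carried FoxP3A384T:hCD2. In both, a human CD2 reporter tied to FoxP3 was the handle for the sort, so the WT cells carry the reporter too. Each library has its own peak list, called against a control library. After duplicate removal the 6 libraries held 17520951 to 25386770 tags, and the lists held 1746 to 20723 peaks on the standard chromosomes, with the 2 replicate 1 lists the longest. Both replicate 1 libraries had 51 bp tags and the other 4 had 49 bp tags. Whether replicates were separate animals is not given in the labels, so p-values reflect the spread of these libraries alone, which may be technical. Peak lists carry no expression, so the cell type was not checked against its markers. ChIP averages over the sorted cells, so fewer cells bound and less binding per cell cannot be told apart.

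Ets1 and Fli1 are neighbouring members of the ETS family of transcription factors, which bind DNA at sites with a GGAA core. Ets1 is abundant in resting T cells and acts in T cell development and in Treg cells, where ETS motifs are common in FoxP3-bound elements. Fli1 acts in blood stem cells, megakaryocytes and lymphocytes. The 2 genes are transcribed away from each other, so their 5′ ends face across the interval between them, and the chromatin around them is known in T cells as a group of enhancers that contact each other. In the RefSeq gene order (assembly GRCm38.p6, used for order only) Arhgap32, Kcnj5 and Kcnj1 precede Fli1. There are 2 long noncoding RNA genes between Fli1 and Ets1, and 6 long noncoding RNA genes and 0 protein-coding genes between Ets1 and Kirrel3. In mm9, Fli1 spans about 32.23 to 32.35 Mb and Ets1 about 32.44 to 32.57 Mb. These bounds are approximate, rounded to 10 kb, so exons, introns and promoters were not assigned.

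FoxP3 peaks lay in a dense row over the 5′ part of Fli1, the interval between the genes, Ets1 itself and the sequence beyond Ets1, with empty stretches on either side. WT replicates 1, 2 and 3 had 105, 29 and 41 peaks in the window, and A384T replicates 1, 2 and 3 had 65, 48 and 18. Those counts put the window at places 3, 3 and 4 among the 1 Mb windows of the WT lists and at places 2, 4 and 3 in the A384T lists. The median window with any peak held 8, 2 and 2 peaks in WT and 7, 3 and 2 in A384T. The next window, from 33 to 34 Mb, held 0 peaks in every library, and the window before, from 31 to 32 Mb, held 1 to 10. The last summit before the window lay 424 to 1195 kb upstream of the first summit inside it. The first summit after the window lay 2036 to 8058 kb beyond the last one inside, so no peak sat close to either edge.

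**Figure D1:**
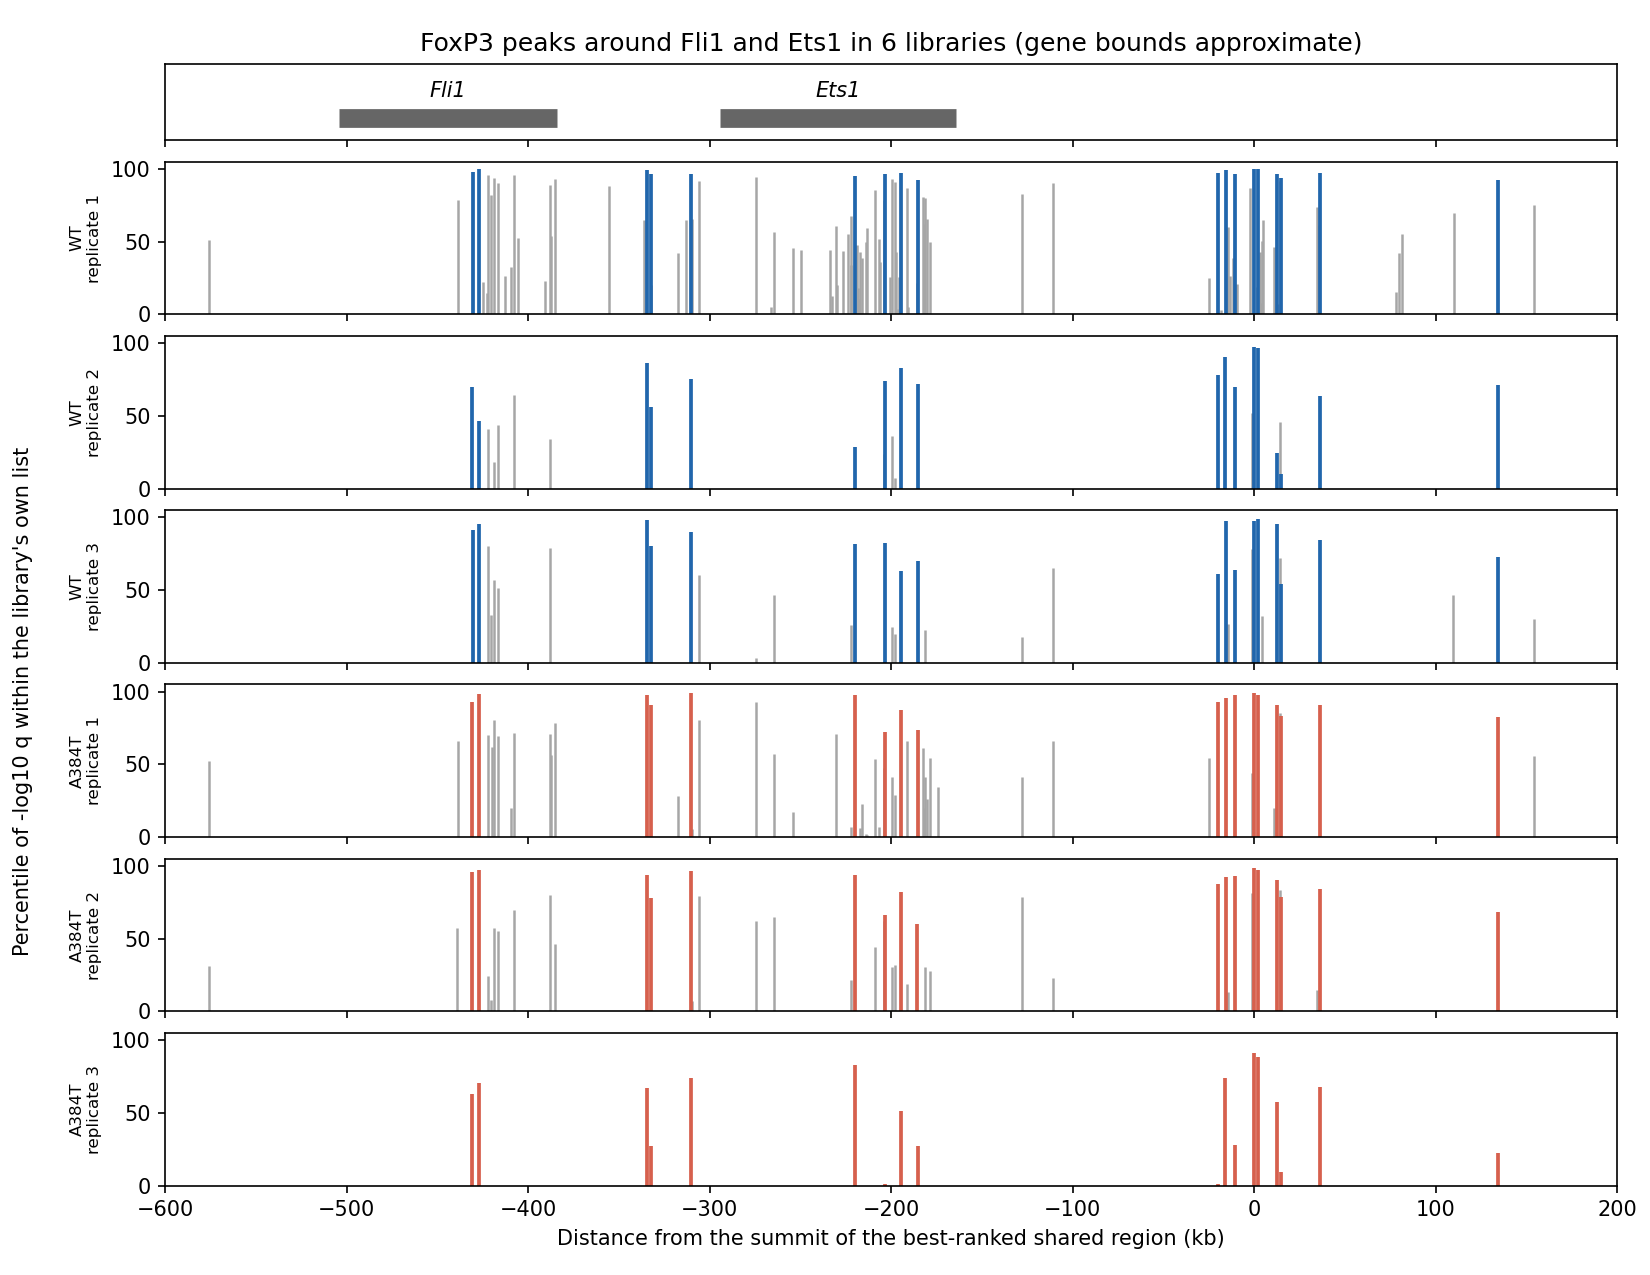
FoxP3 peaks around Fli1 and Ets1 in each library. The x axis is the distance in kb from the summit of the best-ranked shared region, the y axis is the percentile of a peak's -log10 q within its own list, coloured lines are the 18 regions with a peak in all 6 libraries (blue WT, red A384T), grey lines are other regions, and the bars mark approximate gene bounds. The coloured lines recur at the same positions in each library, and A384T replicate 3 has no grey line; 2 of its lines, at the 1.49 percentile, are barely visible.

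Fli1 held 17 of the 106 regions, all of them in the 55 kb nearest Ets1, where the 5′ end of Fli1 lies. The other 65 kb of the gene held none. The interval between the genes held 10 regions, Ets1 held 45 and the sequence beyond Ets1 held 33. A single region, chr9:32157811-32158197, lay before Fli1, with peaks in WT replicate 1 and in A384T replicates 1 and 2. Split at gaps of more than 25 kb, a distance set after the positions were seen, the regions formed 8 groups, of which 4 held 10 regions or more. These 4 ran from 32294997 to 32349197 in Fli1, from 32378297 to 32428508 between the genes, from 32459760 to 32560057 in Ets1 and from 32708962 to 32770829 beyond Ets1. In these 4 groups, joined over all libraries, neighbouring regions were closest in Ets1 and beyond it, at median spacings of 1.26 and 1.29 kb. In Fli1 the spacing was 2.15 kb and between the genes 2.84 kb. The spacings lean on the longest list. WT replicate 1 alone gave 19 of the 45 regions in Ets1 and 13 of the 33 beyond it. It alone gave 5 of 17 in Fli1 and 4 of 10 between the genes.

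Ets1 had the most joined regions but the sequence beyond it had the most that recurred. In full lists, WT replicates 1, 2 and 3 had 44, 7 and 10 peaks in Ets1 and 33, 12 and 19 beyond it. A384T replicates 1, 2 and 3 had 25, 14 and 4 in Ets1 and 18, 17 and 9 beyond it. Only the replicate 1 lists, the longest, thus had more peaks in Ets1 than beyond it. Of the 45 regions in Ets1, 4 had a peak in all 6 libraries and 20 had a peak in 1 library only. Beyond Ets1, 9 of 33 had a peak in all 6 libraries, and the counts were 3 of 10 between the genes and 2 of 17 in Fli1. In total 18 of the 106 regions (17%) were found in all 6 libraries, where the share over all regions of the genome was 3.88%. Because the window was picked for its many peaks in these same lists, this contrast is only a description. A difference between segments in the share found in all 6 libraries was not tested.

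**Figure D2:**
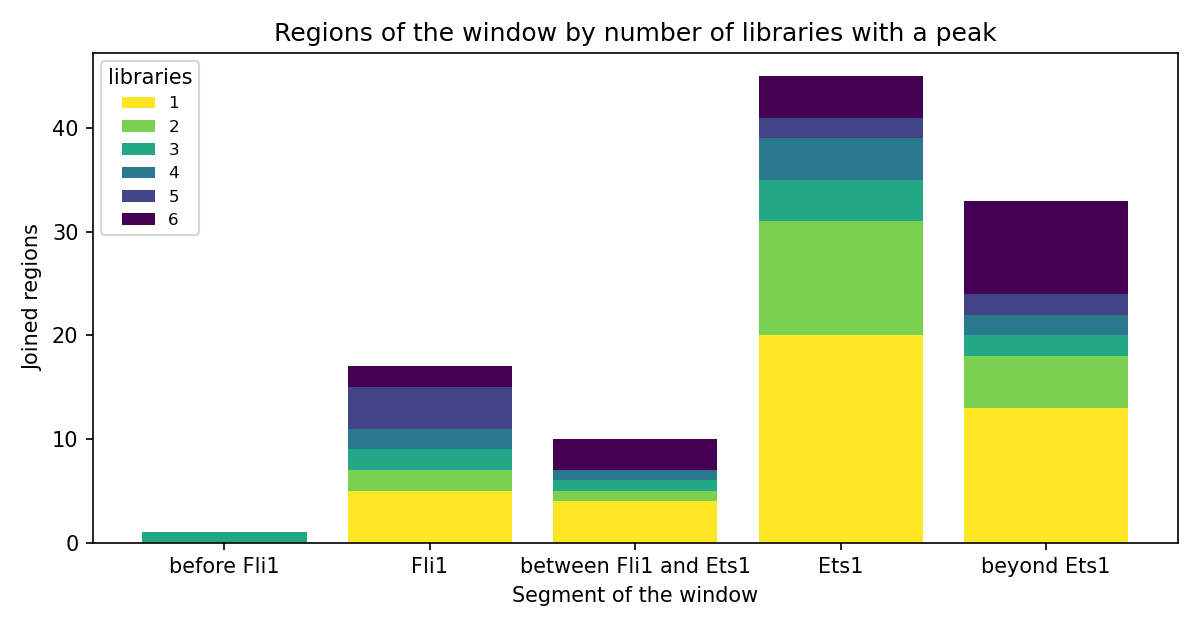
Joined regions in each segment of the window, stacked by the number of libraries with a peak there. Ets1 holds 45 regions, of which 20 come from 1 library, and the sequence beyond Ets1 holds 9 regions found in all 6.

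The lists were nested inside each other around these genes. WT replicate 1, with the longest list, had a peak in 105 of the 106 regions. It was the only library in 41 of the 42 regions seen once (39.6% of the window's regions; 42.4% over the genome). All 8 regions found in 5 libraries lacked a peak only in A384T replicate 3, whose list of 2050 peaks is short. Over the genome, regions found in all remaining libraries rose from 962 to 1494 when that library was left out. Leaving out WT replicate 2, with 1746 peaks, gave 1396. In the window the same counts were 18, 26 and 18. All 18 regions of A384T replicate 3 were also in the other 5 libraries, where the share over all regions of that library was 48.3%. For WT replicate 2, whose list is shorter still, 18 of 28 regions were in all 6 libraries, against 57.8% over its whole list. A peak in both genotypes was found in 62 regions (58.5%), close to the 56% over the genome.

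The highest-ranked region lay beyond Ets1, at chr9:32733198-32734609. Its fold enrichment over control, given as throughout in the order of replicates 1, 2 and 3, was 55.5, 24.5 and 21.7 for WT. For A384T it was 46.2, 31.4 and 16.1. In every library it stood at the 91.2 percentile of the list or above, ranked by -log10 q, the significance the peak caller gave each peak. Its summits in the 6 libraries fell within 67 bp of each other. Fold and q are the authors' values for single peaks and describe a peak within its own list. They were read here per library and not averaged over a genotype.

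The next shared region followed 2.26 kb away, at chr9:32735749-32737220, with folds of 52.7, 24.8 and 32.9 in WT and 35.9, 22.9 and 16.1 in A384T. These 2 regions were among the 3 strongest of the window in every library except A384T replicate 1, where the first of them was. In WT replicate 1 both peaks were wide, at 1412 and 1472 bp, against a median of 382 bp for that library's peaks in the window. The same group held 6 more regions found in all libraries, 3 before this pair and 3 after it. At chr9:32717762-32719058 the folds were 39.7, 17.3 and 32.2 in WT and 27.6, 22.5 and 10.1 in A384T. At chr9:32722950-32724177 they were 39.3, 14.8 and 13.7 in WT and 50.9, 26.7 and 6.76 in A384T, and A384T replicate 1 had there its largest fold of the window. chr9:32769999-32770829, at the far end of the group, had folds of 46.3, 15.3 and 19.7 in WT and 24.7, 20.8 and 13.7 in A384T. At chr9:32746272-32746935 the WT libraries were far apart, with 25.03, 5.78 and 28.7, and A384T had 29.9, 21.8 and 9.67.

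The strongest regions of the interval between the genes were chr9:32399308-32400399 and chr9:32423440-32423949. The first had folds of 40.1, 12.5 and 31.1 in WT and 37.0, 18.2 and 9.40 in A384T. The second had folds of 21.8, 13.0 and 18.0 in WT and 48.7, 28.2 and 8.56 in A384T. In A384T replicate 1 the second was the strongest peak of the whole window by q. In WT replicate 3 the first stood second in the window.

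In Fli1 the 2 regions found in all libraries lay 3.8 kb apart. chr9:32307085-32308052 had the largest fold of any peak in the window, 71.9 in WT replicate 1. It also had the widest range among WT libraries, with 6.26 in WT replicate 2 and 26.4 in WT replicate 3, and 44.7, 39.3 and 9.74 in A384T. Its summits were the most tightly placed of the 18 regions, within 16 bp. chr9:32302974-32303732 had folds of 38.0, 12.3 and 19.1 in WT and 23.9, 33.4 and 14.2 in A384T. Over the 18 regions the spread of summits between the 6 libraries had a median of 84.5 bp and reached 222 bp, and in 11 regions it was at most 100 bp.

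In Ets1 itself the best region found in every library had a mean percentile of 79.9 over the 6 libraries. The best in Fli1, between the genes and beyond Ets1 had 85.0, 90.3 and 97.2. Other shared regions beyond Ets1 stood lower than the best in Ets1, down to 54.9. The best-ranked in Ets1, chr9:32513641-32514279, had folds of 29.5, 8.12 and 15.4 in WT and 29.4, 16.4 and 15.7 in A384T. In A384T replicate 3 it was the third strongest peak of the window. chr9:32538815-32539973 followed with folds of 31.6, 12.9 and 8.71 in WT and 16.9, 14.8 and 9.26 in A384T. The median percentile of Ets1 peaks was 48.8, 36.4 and 36.6 in WT and 41.5, 52.1 and 39.1 in A384T. Beyond Ets1 the medians were higher in every library, from 57.3 in A384T replicate 3 to 82.8 in A384T replicate 1. Fli1 peaks had medians of 43.9 to 81.8 and peaks between the genes of 67.3 to 85.8. Peaks in the window were wider than the list median in each library, for example 382 against 261 bp in WT replicate 1 and 256 against 180 bp in A384T replicate 3.

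The comparison of genotypes asks whether the substituted protein occupies these sites like the wild-type protein does. No region of the window had peaks throughout one genotype and none in the other (over the genome, 0.0121% for WT and 0.186% for A384T). A peak in at least 2 WT libraries and in no A384T library was found in 2 regions, beyond Ets1 (1.89%; 0.872% over the genome). They were chr9:32738460-32738657, with folds of 14.3 and 10.5 in WT replicates 1 and 3, and chr9:32843851-32844186, with folds of 19.4 and 12.2 in the same libraries. The reverse class was empty (0.763% over the genome), but without WT replicate 1 it held 8 of 70 regions. The WT class held 0 without WT replicate 1 or 3 and 4 of 106 without A384T replicate 2. Genome shares are not given for these settings. Without WT replicate 1 the WT lists held 1746 and 3905 peaks, against 18147, 6657 and 2050 in A384T. The 8 regions are therefore not read as a result about this window.

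Set against the length of its own list, the window took 0.507, 1.66 and 1.05% of peaks in WT and 0.358, 0.721 and 0.878% in A384T. The groups overlapped, with means of 1.07 ± 0.577 and 0.652 ± 0.267 (SD, n = 3 each). The difference of -0.42 points (A384T minus WT) was smaller than the WT SD but larger than the A384T SD (exact permutation over libraries, two-sided p = 0.4). Full lists mix strong and weak peaks to different depths, so every list was also reduced to its 1746 strongest peaks by -log10 q, the length of the shortest list.

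With lists of equal length the window held more peaks in every WT library than in any A384T library. The counts were 25, 29 and 25 in WT and 14, 20 and 15 in A384T, or 26.3 ± 2.31 against 16.3 ± 3.21 (SD, n = 3 each). The two-sided exact permutation p was 0.1, the smallest that 3 against 3 allows, so no difference could pass a 0.05 threshold. Within the 49 bp libraries the WT mean was 27 ± 2.83 and the A384T mean 17.5 ± 3.54 (SD, n = 2 each; exact permutation p = 0.333, the smallest for 2 against 2), and the 51 bp libraries gave 25 and 14. Among the 500 strongest peaks the counts were 7.67 ± 1.53 and 6.33 ± 3.06 (exact permutation p = 0.7), so at that length the genotypes differed by less than the spread.

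This order was not particular to Ets1 and Fli1. Over all 1204 windows of 1 Mb with a peak in any of the equal lists, counts were higher in every WT library in 3.57% and higher in every A384T library in 6.31%. In the 50 windows with a mean of at least 5 peaks over the 6 equal lists, a minimum set after the values were seen, WT was higher throughout in 12 (24%) and A384T in 0 (0%). In the other 1154 windows the shares were 2.69% and 6.59%. The window from 11 to 12 Mb of chromosome 19, the only other one with as many as 18 regions found in all 6 libraries, had 25, 36 and 29 peaks in WT and 6, 23 and 14 in A384T. The window from 82 to 83 Mb of chromosome 7, next with 10 such regions, had 17, 19 and 19 in WT and 8, 15 and 13 in A384T.

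**Figure D3:**
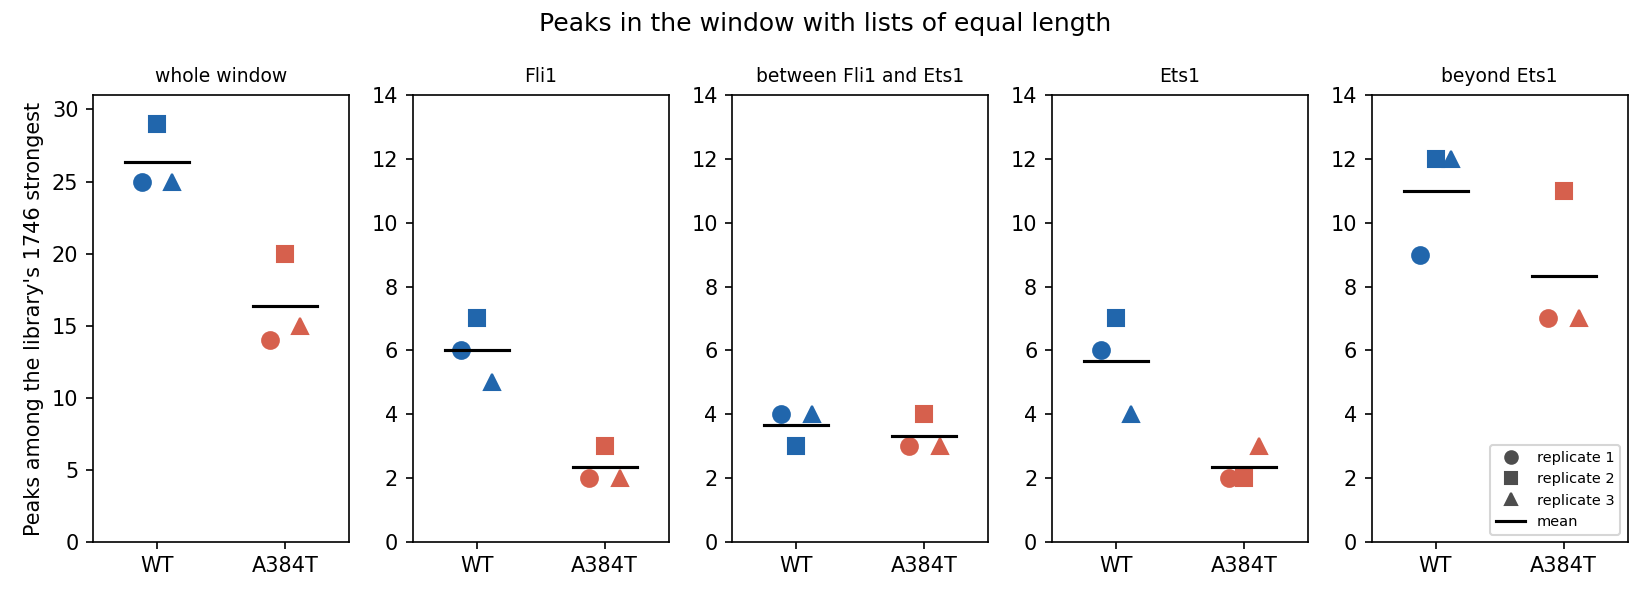
Number of peaks among each library's 1746 strongest, for the whole window and for its segments. Points are libraries, shapes are replicate numbers and black lines are means; WT and A384T points do not overlap in the whole window, in Fli1 and in Ets1, and overlap between the genes and beyond Ets1.

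By segment, these small counts separated in the 2 genes and not between or beyond them. Fli1 held 6, 7 and 5 of these peaks in WT and 2, 3 and 2 in A384T. Ets1 held 6, 7 and 4 in WT and 2, 2 and 3 in A384T, where 4 and 3 nearly touched. Between the genes there were 4, 3 and 4 in WT and 3, 4 and 3 in A384T, and beyond Ets1 9, 12 and 12 against 7, 11 and 7. How often segments of this size separate elsewhere in the genome was not counted. Whether the genotype difference itself differs between segments was not tested. In the rank order given below, regions between and beyond the genes were also higher in every WT library, and both shared Fli1 regions overlapped. In full lists, the share of the window's peaks at or beyond the start of Ets1 averaged 69.9 ± 3.98% for WT and 67.7 ± 4.03% for A384T (SD, n = 3 each; two-sided exact permutation p = 0.6).

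With equal lists 34 regions remained in the window, of which 12 (35.3%) were in all 6 libraries, against 13.4% over all regions of these lists. This too describes a window picked for its many peaks. All 3 WT libraries and no A384T library had a peak in 3 of the 34 (8.82%; 3.21% over all regions), and the reverse class held 0 (3.55%). At least 2 WT libraries and no A384T library had a peak in 6 (17.6%; 9.08%), and the reverse class again held 0 (9.62%). The 3 regions were chr9:32311580-32312096 and chr9:32314630-32315444 in Fli1 and chr9:32530416-32531092 in Ets1. In the full lists the Ets1 region had a peak in all 3 A384T libraries, and the 2 Fli1 regions had one in A384T replicates 1 and 2 and none in A384T replicate 3. At chr9:32311580-32312096, for example, the folds were 36.8, 9.68 and 17.2 in WT and 12.1 and 7.43 in A384T replicates 1 and 2.

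The 18 regions found in every library could also be compared by their order. In each library the 962 regions of the genome that all libraries share were ranked by -log10 q, with 100 the strongest, and the 18 regions were placed in that order. In 7 of the 18 (38.9%) all WT ranks lay above all A384T ranks, where 13.3% of the 962 did so. In 1 (5.56%) all A384T ranks lay above all WT ranks, against 11.5% of the 962. A384T had the lower mean rank in 14 of the 18, where 53.4% of the 962 did so. Ranked by fold, 4 of the 18 were higher in WT (8.32% of the 962) and 0 higher in A384T (7.59% of the 962). By both measures 3 were higher in WT, a count for which no share over the 962 is given. Without A384T replicate 3 the window held 26 regions found in the other 5 libraries. Of these, 10 were higher in WT (38.5%; 14.6% over the genome) and 3 higher in A384T (11.5%; 15.5% over the genome). Without WT replicate 3, 9 of the 18 were higher in WT (50%; 17.1%) and 2 higher in A384T (11.1%; 14.3%). Fewer libraries leave fewer ranks to keep apart, so counts without a library tend to rise, in the window and over the genome. A single region cannot give an exact p below 0.1 here, so these are counts and not calls for single regions.

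The widest gap was at chr9:32530416-32531092 in Ets1, where the rank percentiles were 45.3, 58.9 and 45.1 in WT and 6.65, 9.36 and 0.988 in A384T. The means were 49.8 ± 7.94 and 5.67 ± 4.27 (SD, n = 3 each). The folds of this region overlapped, at 38.65, 15.04 and 15.11 in WT and 20.87, 15.0 and 5.54 in A384T. Within whole lists it stood at the 96.5, 74.3 and 82.3 percentile in WT and 72.4, 66.3 and 1.49 in A384T. A low rank among shared regions is thus not a weak peak in A384T replicates 1 and 2. At 16.8 kb from it in the same gene, chr9:32513641-32514279 went the other way, with 32.6, 16.1 and 43.4 for WT and 75.2, 63.2 and 73.4 for A384T. Its means were 30.7 ± 13.8 and 70.6 ± 6.47 (SD, n = 3 each), and the difference of 39.9 was 23.7 without WT replicate 2. Ranked by fold the difference was 20.2 and the genotypes overlapped. Both regions were singled out after their values were seen. In rank by -log10 q, then, the first region was higher in each WT library and the second in each A384T library. In rank by fold only the first was separated.

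The pair of strongest regions beyond Ets1 ranked high in both genotypes but higher in WT. chr9:32733198-32734609 stood at 95.2, 94.5 and 91.0 in WT and 85.8, 90.5 and 85.0 in A384T, a narrow separation. chr9:32735749-32737220 stood at 91.2, 94.4 and 94.2 in WT and 74.4, 83.1 and 80.4 in A384T. chr9:32717762-32719058 stood at 77.9, 83.0 and 89.1 in WT and 59.7, 59.5 and 61.9 in A384T. The last 2 of these and the Ets1 region chr9:32530416-32531092 were the 3 that were also higher in WT when ranked by fold. At all 3 the folds themselves overlapped between genotypes.

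Between the genes, chr9:32399308-32400399 stood at 87.1, 76.4 and 93.1 in WT and at 72.7, 63.3 and 53.6 in A384T. Its neighbour chr9:32401814-32402431 was also higher in every WT library, at 38.2 to 47.6 against 17.4 to 37.4 in A384T. The outermost shared region beyond Ets1, chr9:32868011-32869003, was the last of the 7, at 18.1 to 54.7 in WT and 10.7 to 17.2 in A384T, with 18.1 and 17.2 nearly touching. In the other 10 regions the genotypes overlapped in rank by -log10 q. Of these, chr9:32769999-32770829 was higher in every WT library when ranked by fold. Also among the 10 were both Fli1 regions, where chr9:32307085-32308052 ranged from 29.2 to 95.8 in WT and from 57.4 to 82.1 in A384T. The region between the genes that was strongest in A384T replicate 1, chr9:32423440-32423949, had the higher A384T mean but overlapped, at 44.6 to 63.6 in WT and 61.4 to 86.6 in A384T.

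**Figure D4:**
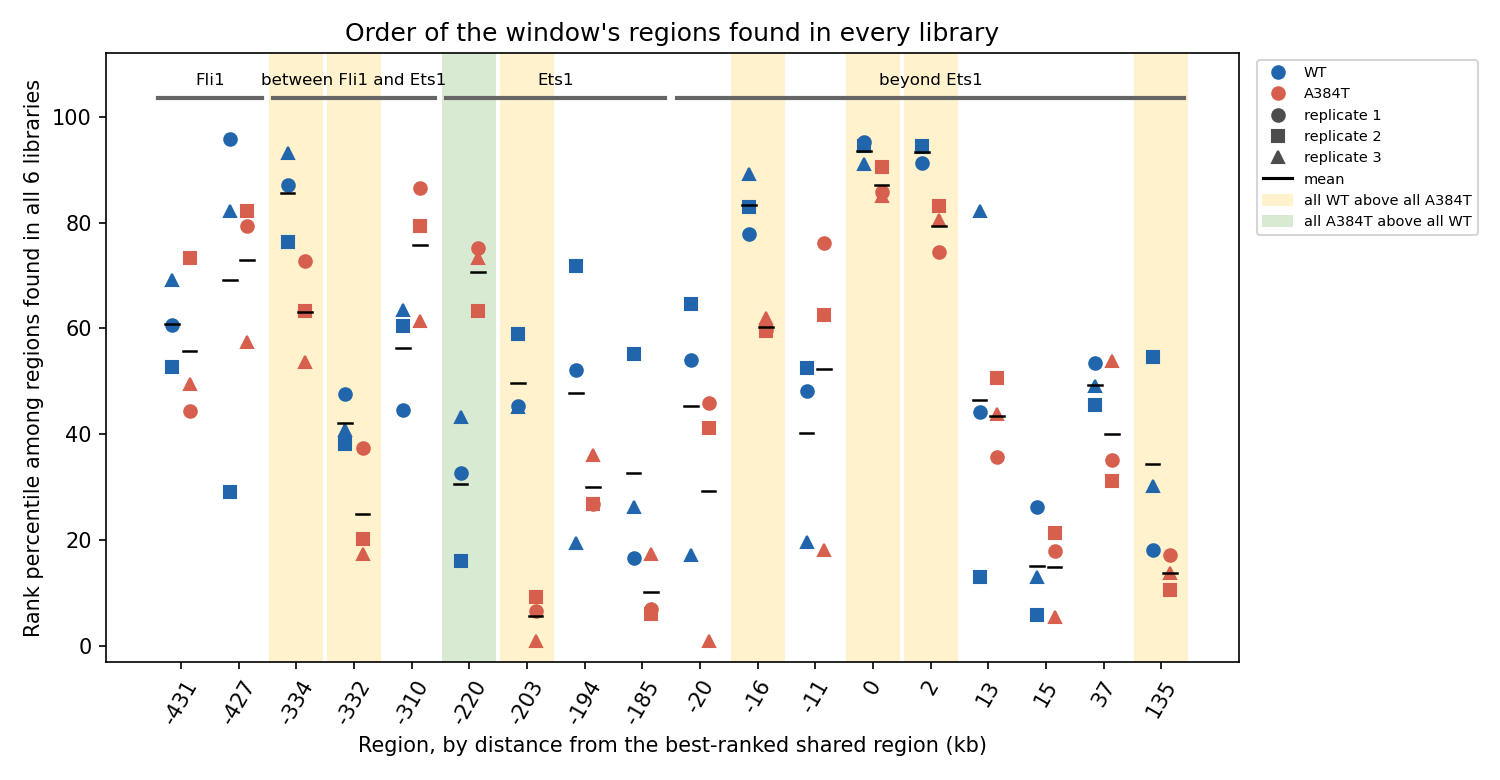
Rank percentile of the 18 regions found in every library, among the 962 such regions of the genome (100 is the strongest by -log10 q), in order along the chromosome. Points are libraries (blue WT, red A384T), black lines are means, and shading marks the 7 regions with all WT above all A384T and the 1 region, in Ets1, with the reverse.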

How the data were processed

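FoxP3 ChIP-seq was analysed from 6 peak lists, 3 per genotype, with groups and replicate numbers from the sample titles; the 6 input libraries were not analysed here as samples. Bowtie2, MACS2 and mm9 are named in the submitters' processing notes. Peaks were called per library with MACS 2.1.0.20140616, each against its own control. Per the file headers the cutoff on the q-value was 1e-10. The deposited values per peak are positions, the pileup (a signal), the fold enrichment (a ratio to local control background) and the -log10 p-value and -log10 q-value. Absence from a list means only that no peak passed this cutoff.

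Peaks on the standard chromosomes were joined at 1 bp of overlap and ranked within lists. Named regions were the 12 best-ranked found in all libraries, those of the classes by genotype and the 3 strongest peaks per library; others were named after their values were seen. Members, lists and tests were chosen with earlier results of these data known. Tests were exact permutations over libraries; the mean percentile of the window's peaks was not tested. Equally numbered libraries deviated together in replicates 1 and 3 but only weakly in replicate 2 (correlations of ranks 0.435, 0.123 and 0.374 for replicates 1, 2 and 3). A paired fit was therefore run. Joining and ranking were tested on simulated data. Python 3.11.15, numpy 2.4.6, pandas 2.3.3, scipy 1.17.1 and matplotlib 3.10.9 were used. Sequences of the regions were not used here.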

Additional observations from a re-analysis of the deposited data

How the results depend on the processing

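Alternatives to the counts and differences between genotypes numbered 135. Of these, 122 left tested differences with the same sign, the mean percentile within 1 SD and counts within 1.5 times, and 13 moved them. None of these or of 186 alternatives for single regions turned a direction that had been called, but a single count has no direction to turn. The contrast of presence classes did turn. At least 2 libraries of only WT or only A384T had a peak in 2 and 0 regions, and in 0 and 8 without WT replicate 1. With lists of the shortest length the window held 34 regions, 3 in all WT and no A384T library and 6 in at least 2 WT and no A384T library. Ranked by fold, 4 regions were higher in WT and 0 in A384T. Leaving out 1 library gave 70 to 106 joined regions, 0 to 2 regions in all WT and no A384T library, 0 to 4 in at least 2 WT and no A384T library, 0 to 8 in at least 2 A384T and no WT library, 7 to 10 with higher WT ranks and 1 to 3 with higher A384T ranks, out of 18 (26 without A384T replicate 3). The 70 and the 8 came without WT replicate 1, the 2 without WT replicate 2, the 4 without A384T replicate 2 and the 3 without A384T replicate 3. For the presence classes, genome shares with a library left out are not given. With 1 library fewer, fewer ranks must stay apart. The counts of higher ranks could therefore hardly fall, and their range is no test of stability. For equal lists the difference (A384T minus WT) ran from -11.8 without A384T replicate 2 to -8.67 without WT replicate 2, and was -7 with 1000 peaks per list and -1.33 with 500. The share of a list in the window differed by -0.703 points without WT replicate 1 (exact permutation p = 0.1) and by -0.126 without WT replicate 2.

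The mean percentile of the window's peaks, 57.8 ± 3.61 in WT and 55.7 ± 4.79 in A384T, differed by -2.11, by 0.611 without A384T replicate 3 and by 1.54 with peaks of -log10 q of at least 20. With the replicate number as a block (paired sign flips), the differences were -0.42 points for the share and -10 peaks for equal lists, each lower in A384T in 3 of 3 pairs (exact p = 0.25, the smallest that 3 pairs allow), and -2.21 points for the share at or beyond Ets1 (exact p = 0.75). Pairs cut to the same length, lists of 1000, lists ranked by fold and the 49 bp subset were chosen after the data were seen. Lists share no scale, so a weak peak missing from a short list is not shown to be unbound.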

Other observations

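The window was also compared with the rest of the genome by how many shared regions it concentrates. Of 1874 windows of 1 Mb with any region, 520 held a region found in all 6 libraries. The window of Ets1 and Fli1 and the one from 11 to 12 Mb of chromosome 19 each held 18, and the next highest held 10. Of their 18 regions, 7 and 5 were higher in every WT library and 1 and 1 higher in every A384T library. In the window from 82 to 83 Mb of chromosome 7 the counts were 2 and 0 of 10. Over all 962 shared regions the shares were 13.3% and 11.5%. These are descriptions of windows picked for their density, and the counts depend on how many shared regions a window holds.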
